A study of Mus musculus with 8 samples.

Results

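Astroglial cells clear transmitters, move water and feed neurons, and the 6 genes described here encode proteins of those tasks: the transporter genes Slc6a11, Slc1a2, Slc38a3 and Slc7a10, the water channel gene Aqp4 and the aldolase gene Aldoc. They were chosen by name, with their changes already known, and make up 6 of the 155 distinct rows of the authors' deposited table. The table compares neural stem cells from the mouse subventricular zone, the germinal layer along the lateral ventricles, nucleofected with a short hairpin RNA against the long non-coding RNA Paupar (shPaupar) with control cells. The labels name 4 samples in each group and 8 in all, grown with EGF and FGF-2, and do not say what the control cells received, which mouse strain or age was used, or whether the samples came from separate animals. The authors' deposited table gives 1 level per group and no value per sample, so no SD or depth can be given. Paupar has 0 rows in it, and the extent of the knockdown is not known here. Any judgement of a difference against sample spread therefore rests on the p-values of that table, and the sources used here do not say which test gave them.

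Astrocytes and the neural stem cells of the adult brain share much of this equipment. Slc1a2 (GLT-1) and Slc6a11 (GAT3 in the nomenclature of rat and human) take up glutamate and GABA that leave the synapse, and glutamine, made from glutamate in astroglia, leaves the cell through the system N carrier Slc38a3 (SNAT3). Slc7a10 (Asc-1) exchanges small neutral amino acids such as serine, alanine and glycine, Aqp4 is the main water channel of astroglial membranes, and Aldoc is the brain isoform of a glycolytic enzyme that splits fructose 1,6-bisphosphate.

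All 6 genes were lower in shPaupar than in control cells, 5 of them by 21.4% to 26.9% and Slc7a10 by 51.7%. Every row of the authors' deposited table has an adjusted p under 0.05, and 65.2% of the rows were lower in shPaupar cells. These changes were known when the genes were chosen, so nothing is read from the count of 6. With an adjusted p under 0.01, 5 of the 6 were left, and 41.9% of the rows were past it and lower. With an absolute log2 ratio of at least 0.5 or of at least 1, Slc7a10 alone was left, while 47.1% and 23.2% of all rows were lower by at least these sizes in the deposited log2 fold change. The median log2 ratio of the 6 genes was -0.41, beside -0.45 over the 125 rows of the authors' deposited table with a level of at least 1 in both groups. In bulk RNA, fewer cells of a type and less RNA per cell cannot be told apart.

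Start windows of 4 of the 6 genes were taken from a RefSeq table of the GRCm38.p6 assembly, and the 250 bases before the start are shown for Slc6a11 and Slc1a2, the most abundant, and for Slc7a10, which changed most. They are shown as a description, since the genes were chosen with their changes known. The sequences run 5′ to 3′ on the plus strand, and capitals mark CpG dinucleotides, a C followed by a G. No window is shown for Slc38a3 and Aqp4. The windows are chr6:114130991-114131240 for Slc6a11, chr2:102706188-102706437 for Slc1a2 and chr7:35186135-35186384 for Slc7a10.
Slc6a11: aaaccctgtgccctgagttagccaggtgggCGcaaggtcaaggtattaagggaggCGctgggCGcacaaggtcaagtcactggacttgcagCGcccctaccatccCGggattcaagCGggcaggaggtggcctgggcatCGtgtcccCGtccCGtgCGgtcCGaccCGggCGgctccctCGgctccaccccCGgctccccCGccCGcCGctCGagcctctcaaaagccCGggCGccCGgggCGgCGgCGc
Slc1a2: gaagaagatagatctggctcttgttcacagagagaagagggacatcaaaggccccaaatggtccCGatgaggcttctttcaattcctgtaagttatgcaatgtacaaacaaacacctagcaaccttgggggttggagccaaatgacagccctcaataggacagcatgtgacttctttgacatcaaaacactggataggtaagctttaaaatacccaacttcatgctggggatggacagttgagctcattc
Slc7a10: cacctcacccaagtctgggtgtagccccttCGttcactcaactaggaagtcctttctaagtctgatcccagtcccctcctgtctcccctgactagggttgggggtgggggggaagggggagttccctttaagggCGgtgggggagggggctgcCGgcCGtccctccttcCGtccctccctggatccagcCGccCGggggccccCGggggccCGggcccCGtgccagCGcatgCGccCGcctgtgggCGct

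The start regions differed in base composition, and any link between composition and the changes was not tested. Slc6a11 had 25 CpG dinucleotides and a GC content of 71.2%, and Slc7a10 had 14 and 69.6%. Slc1a2 had 1 CpG and a GC content of 44.8%, in a window that lies at an internal start of the gene. The annotated gene begins at 102658659 of chromosome 2, and the bases before that start were not examined. The Aldoc windows, before start sites at 78323073 and 78324198 of chromosome 11, had 5 and 3 CpG. Both of these sites lie inside the annotated gene, which begins at 78322968. The median over all 32851 windows of the RefSeq table was 6 CpG and 52.4% GC. Thus Slc6a11 and Slc7a10 lay above 92.2% and 90.2% of the windows in GC content, and the internal window of Slc1a2 above 23.2%.

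Short motifs were searched on both strands of the same windows. The SOX factor motif ACAAAG had 0 matches in the windows of these 4 genes and a match in 16.5% of all windows. The TATA box TATAAA, found in 12.4% of all windows, had 0 matches as well. The same was true of an E-box, CAGCTG (13.0% of all windows), and of the motif CCAAT (33.8%). TTGGC, the half-site of nuclear factor I, was found for 2 of the 4 genes, Slc1a2 and Aldoc, and in 41.5% of all windows, and it can overlap the CCAAT motif on the opposite strand. TTCNNNGAA, a STAT motif, occurred in an Aldoc window and in 7.02% of all windows. A match is a string of letters and not a known binding site.

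Slc6a11, the GABA transporter gene, had the highest control level of the 155 rows of the authors' deposited table, 93469, and a level of 71549 in shPaupar cells. Per kilobase of annotated exon it was also the highest of the 154 rows with a known exonic length. The log2 ratio was -0.39, a level 23.5% lower (p-value 2.09e-05 and adjusted p of 0.00748, per the authors' deposited table). Its locus (chromosome 6, 114131241 to 114249952, plus strand) equals the span of the gene in the GENCODE M21 annotation of GRCm38, which lists 2 transcripts, 1 protein-coding and 1 with a retained intron. The labels describe depletion of ribosomal RNA and no selection for poly(A) tails, so reads of unspliced RNA can enter such a level.

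Slc1a2, the glutamate transporter gene, was at 50039 in control cells and fell to 39308 with shPaupar, per the authors' deposited table. Its log2 ratio of -0.35, or 21.4% lower, was the least of the 6 and the third smallest among the 125 rows above 1 in both groups (p-value 0.000195 and adjusted p of 0.0435, per the authors' deposited table). It was also the 1 gene of the 6 with an adjusted p above 0.01, and 8 rows of the table that the authors deposited had a larger one, up to 0.0471. The locus (chromosome 2, 102658659 to 102790784, plus strand) holds 12 annotated transcripts, 7 of them protein-coding. The antisense gene Gm13872 shares 189 exonic bases with it, and without strand, whose use in counting is not stated, reads there cannot be told apart.

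Slc38a3, the glutamine carrier gene, was at 14114 in control and 10768 in shPaupar cells, per the authors' deposited table. Its log2 ratio was -0.39, 23.7% lower (p-value 1.74e-05 and adjusted p of 0.00679, per the authors' deposited table). In size the change lay next to that of Slc6a11. The gene (chromosome 9, 107650634 to 107669530, minus strand) has 14 annotated transcripts, 7 protein-coding and 3 with a retained intron, and no annotated gene overlaps it.

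Slc7a10, the exchanger of small neutral amino acids, was the scarce member and changed most. It was at 127 in control and 61.4 in shPaupar cells, a log2 ratio of -1.05 or 51.7% lower (p-value 7.39e-06 and adjusted p of 0.00358, per the authors' deposited table). Lrp3, a gene of the low-density lipoprotein receptor family on the opposite strand, shares 377 of the 2111 exonic bases of Slc7a10 (chromosome 7, 35186385 to 35201114, plus strand). Without strand, whose use in counting is not stated, reads of the shared bases cannot be told apart. Lrp3 is not among the rows used here.

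Aqp4, the water channel gene, was at 4268 in control and 3118 in shPaupar cells (log2 ratio -0.45, 26.9% lower, p-value 8.02e-06 and adjusted p 0.00382, per the authors' deposited table). Its listed locus (chromosome 18, 15389394 to 15403684, minus strand) is not the annotated gene span, 15389496 to 15410982, and 9 of its 11 annotated transcripts start upstream of the listed end. The level may therefore not hold for the whole gene. The other 5 loci equal the annotated gene spans, and 71.1% of the 114 such rows in the authors' deposited table were lower.

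Aldoc, the aldolase gene, was at 5655 in control and 4200 in shPaupar cells, with a log2 ratio of -0.43 or 25.7% lower (p-value 2.39e-05 and adjusted p of 0.00802, per the authors' deposited table). The gene lies on chromosome 11 from 78322968 to 78327781 on the plus strand and has 6 annotated transcripts, 2 of them protein-coding. Its change lay between those of Slc38a3 and Aqp4.

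**Figure D1:**
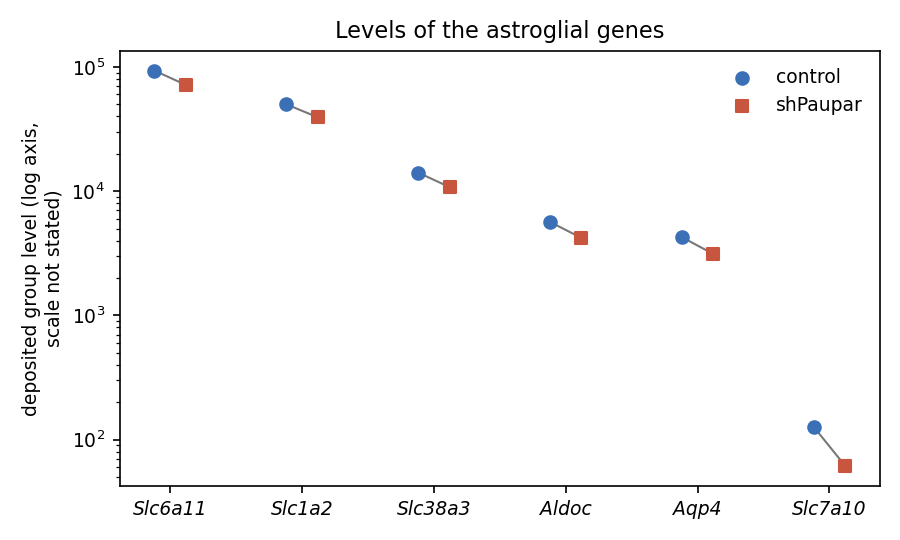
Level of each gene in control (circles) and shPaupar cells (squares) on a log axis, 1 value per group from the authors' deposited table, whose scale is not stated. Slc6a11 is at the top with 93469 and 71549, Slc7a10 at the bottom with 127 and 61.4, and each square lies below its circle.

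The scale of the levels is not stated, and a longer gene yields more reads. Levels were therefore also divided by the annotated exonic length, on the assumption that the authors had not done so. This length pools the exons of all annotated transcripts, 13133 bases for Slc1a2 and 5050 for Slc6a11. For Aqp4 it covers the whole gene, although the listed locus does not. Per kilobase of exon, Slc6a11 was at 18509 in control cells, 4.86 times Slc1a2 at 3810. Slc38a3 followed at 2675, Aldoc at 1733 and Aqp4 at 685 per kilobase, and Slc7a10 came last at 60.2. The order was the same in shPaupar cells, where the values per kilobase ran from 14168 for Slc6a11 to 29.1 for Slc7a10. With 1 value per group, no spread between samples is known for these levels, and whether neighbours in the order, such as Slc1a2 and Slc38a3 (1.42-fold apart in control cells per kilobase), differ beyond it was not tested.

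The log2 ratios of 5 genes, all but Slc7a10, lay between -0.45 and -0.35. Under the assumption that a normal (Wald) test, two-sided, gave the p-values, the standard errors were 0.0906 for Slc6a11, 0.0935 for Slc1a2, 0.0909 for Slc38a3, 0.101 for Aqp4 and 0.102 for Aldoc. The 95% interval of Slc1a2 would then run from -0.53 to -0.17, and that of Aqp4 from -0.65 to -0.25, so each holds the other's value. For Slc7a10 the standard error would be 0.234 and the interval -1.51 to -0.59. It lies below the log2 ratios of the other 5, and it overlaps the intervals of Aqp4 and Aldoc, whose lower ends were -0.65 and -0.63. The difference between Slc7a10 and the other genes was not tested, since values per sample were not analysed here.

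**Figure D2:**
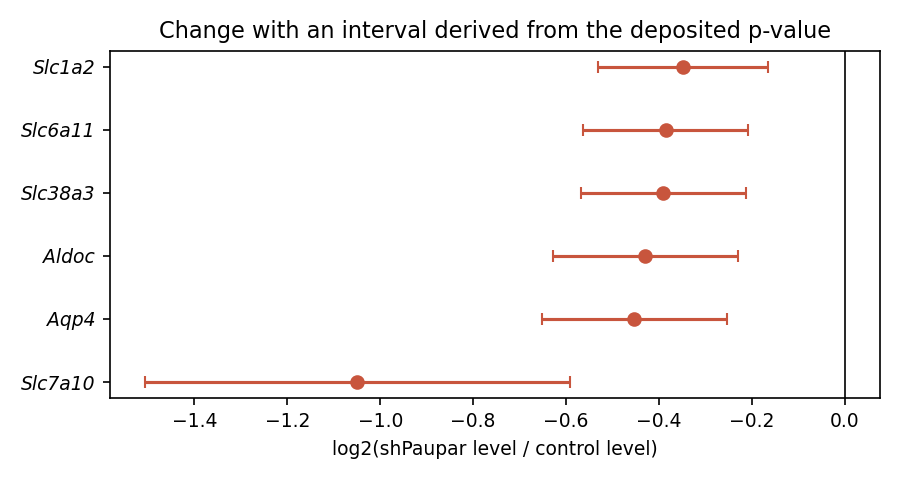
Log2 ratio of the shPaupar to the control level for each gene (points), with 95% intervals (bars) derived from the deposited p-values on the assumption of a Wald test. Slc7a10 is at -1.05 with an interval from -1.51 to -0.59, and the other 5 lie between -0.45 and -0.35.

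In rank, the more abundant of the genes mostly had the smaller changes. Over the 6 genes, Spearman's rho between the absolute log2 ratio and the mean of both levels was -0.94, a description over 6 genes of the same libraries. The 1 departure from a strict order was the pair Slc1a2 and Slc6a11, in which the more abundant Slc6a11 changed slightly more. Apart from Slc7a10, the absolute log2 ratios ran from 0.35 to 0.45, and the standard errors derived above from 0.0906 to 0.102. The order of change among these 5 genes is therefore not resolved. Without Slc7a10 rho was -0.90 over 5 genes, the value that 1 neighbouring pair out of order must give. Per exonic kilobase rho over the 6 genes was again -0.94, which had to be so because their order by level is the same.

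The same relation ran through the whole table. Over the 125 rows of the authors' deposited table above 1 in both groups, rho was -0.80, and over the rows at annotated gene spans without the members it was -0.77 (n = 97 rows). The median absolute log2 ratio was 2.06 over 24 rows with a mean level under 100, 0.73 over 39 rows from 100 to under 1000, 0.50 over 36 rows from 1000 to under 4000, and 0.41 over 26 rows from 4000 up. Over rows at annotated gene spans alone, the first of these medians was 1.35 (16 rows) and the others were 0.71, 0.50 and 0.41. Over all 125 rows, the smallest absolute log2 ratio in each class fell likewise, from 0.88 through 0.46 to 0.34 and 0.34. All rows of the authors' deposited table passed an adjusted p of 0.05, so rows with smaller changes at low levels were not part of what was compared. What part this selection has in the relation was not tested.

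**Figure D3:**
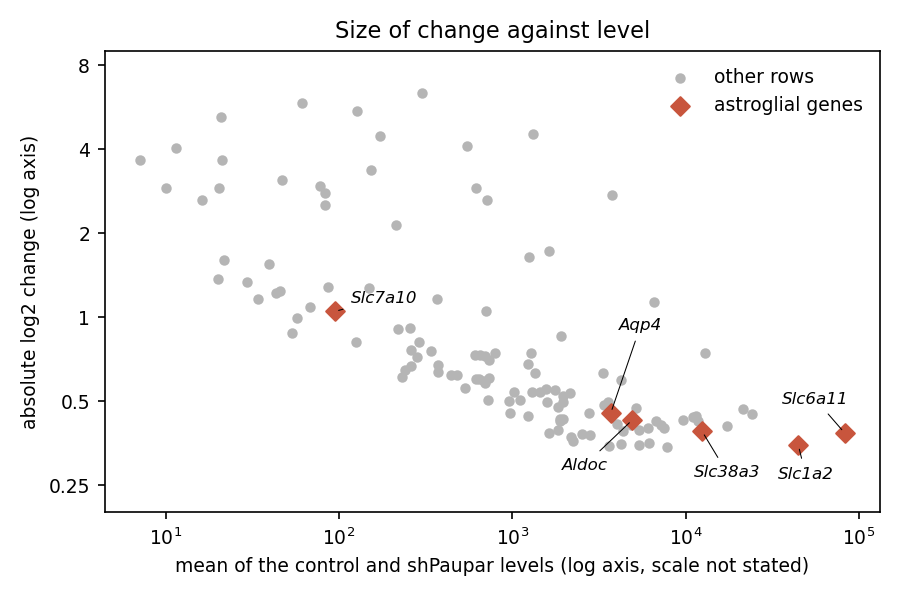
Absolute log2 ratio against the mean of the control and shPaupar levels, both on log axes, for the 125 rows of the authors' deposited table with levels of at least 1 in both groups; diamonds are the 6 astroglial genes. The diamonds run from the middle of the plot to its lower right, from Slc7a10 at 1.05 to Slc1a2 at 0.35.

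Each gene was also set beside the other rows of like level. For Slc7a10, 13 other rows had a mean level within 2-fold, 7 lower and 6 higher in shPaupar cells. Of these, 10 changed more than Slc7a10. The rows at both extremes, Cog7 (log2 ratio -5.86) and Pan2 (5.48), are not at annotated gene spans. Nor are Idh3g (4.44), Snrnp25 (2.79) and Abhd16a (2.52). The others of the 10, which are at annotated gene spans, were Gm26848 (3.36), Pcdha11 (2.95), Cldn10 (-1.28), Ggn (-1.27) and Slitrk6 (-1.09). Around Slc38a3 there were 13 rows with a median absolute log2 ratio of 0.43, and 12 changed more. For Aqp4, 11 of 31 such rows of the authors' deposited table changed more and 20 less, and for Aldoc 9 of 25 changed more and 16 less. Slc6a11 and Slc1a2 had 1 and 2 rows within 2-fold, among them each other.

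**Figure D4:**
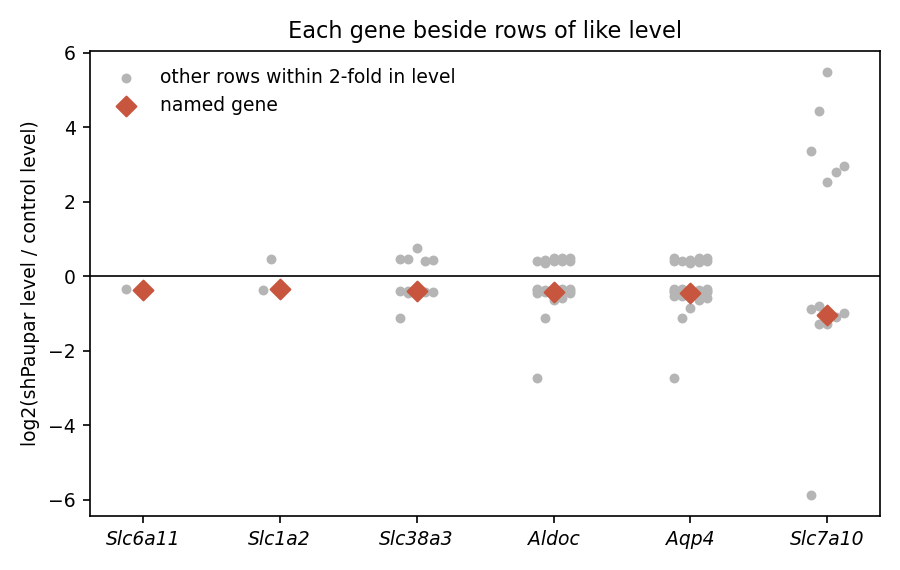
Log2 ratio of each gene (diamond) and of the other rows within 2-fold of its mean level (grey points), with genes in order of level. The 13 rows around Slc7a10 spread from -5.86 (Cog7) to 5.48 (Pan2), neither of them at an annotated gene span. The 25 around Aldoc spread from -2.74 to 0.50.

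The rows nearest in both levels were found by their distance in log2 control and log2 shPaupar level, which covers 2 group values and no samples. The log2 ratio is the difference of these 2 values, so a close row has a like ratio by construction. Slc38a3 was closest to Pla2g7, a secreted phospholipase gene (log2 ratio -0.42), and to Nell2 (-0.44) in the authors' deposited table. Slc7a10 was closest to the claudin gene Cldn10 (-1.28) and to Sec16b (-0.81), and Aqp4 to Cbs, which makes cystathionine (-0.34), and to the potassium channel-interacting protein gene Kcnip3 (-0.41). Aldoc lay nearest to the NAD-synthesising enzyme gene Nmnat2 (-0.40) and to Thy1 (-0.35). Slc6a11 and Slc1a2 were nearest to each other, and then to Rnf213, which was higher in shPaupar cells (log2 ratio 0.45).

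Related genes were mostly not among the rows. Of 19 glial and amino acid transporter genes listed, 4 were rows of the authors' deposited table, all lower and all among the 6 genes. Of all rows, 65.2% were lower. The lists were written with earlier results of these data known and include the 6 genes, so nothing is read from these counts. The transporter list also holds Slc1a3 and Slc7a11, which were not among the rows used here. Of 16 water channel and membrane partner genes and of 20 glycolytic genes, Aqp4 and Aldoc were the 1 row each, while 0 of 11 enzymes of glutamate, glutamine and GABA metabolism were rows. Changes of genes that are not rows are unknown here.

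Of 30 further genes of astroglial and neural stem cell identity, 0 were among the rows, so the labelled cell type could not be checked against them. That list leaves out the 6 genes described here, which are themselves astroglial genes and were chosen with their changes known. Of markers of other cell types, 1 of 15 neuroblast and neuronal genes was a row, Dcx, which fell from 286 to 152 (log2 ratio -0.91, adjusted p 0.000777, per the authors' deposited table). Among ependymal genes, 1 of 10 was a row, Spag6, at 5.33 in control cells and listed at 0 in shPaupar cells, although its identifier is that of a paralog. Oligodendrocyte, microglial and vascular markers had 0 of 12, 0 of 12 and 0 of 10 rows. The share of all tested genes that are rows is not known here, so nothing is read from these counts. The part of other cell types in the levels of the 6 genes was not tested.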

How the data were processed

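RNA was sequenced from 4 control and 4 shPaupar samples. Per the labels' protocols, probes depleted ribosomal RNA and cDNA synthesis was primed with random hexamers. StringTie, TopHat2, HISAT, HISAT2 and CASAVA are named in the submitters' processing notes, with no role or version. The sources used here do not give the counter, the test, the strand setting or the build. The deposited table has 156 rows, of which 1 was shifted by 1 column and read accordingly, and 1 repeat was dropped, leaving 155. Group levels as deposited are a signal of unstated normalization, 1 value per group. The fold change that the authors deposited is in log2 units, and the deposited p-values are given unadjusted and adjusted, by unnamed methods. Levels below 1e-10 were read as 0.

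Log2 ratios were computed from the deposited levels and differed from the deposited log2 fold changes of the 6 genes by at most 0.0015. A test between groups, planned in case of values per sample, was not run. Standard errors assume a Wald test, and their calculation was tested on simulated data. Named genes are the 6 members, rows on 10 gene lists (149 distinct genes), and the 2 rows nearest to each member in both levels, leaving out predicted genes, unnamed loci and pseudogenes. Members, lists and rules were chosen with earlier results of these data known. The overlapping genes Lrp3 and Gm13872 were looked up afterwards. Exonic lengths and spans are from GENCODE M21 (GRCm38), found for 154 of 155 rows by identifier. Coordinates of rows are as listed in the file, which names no build. Alternatives were pseudocounts of 1 and 10, thresholds of 0.01 on the adjusted p and of 0.5 and 1 on the log2 ratio, level filters, other measures of abundance, each member left out, and 3 choices added after seeing the data. Python 3.11.15, pandas 2.3.3, NumPy 2.4.6, SciPy 1.17.1 and Matplotlib 3.10.9 were used.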

Additional observations from a re-analysis of the deposited data

How the results depend on the processing

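No paired analysis was possible because the deposited table gives 1 level per group, and for the same reason leaving out a sample and the count tests were not run. All 6 log2 ratios stayed below 0 with the deposited log2 fold changes and with pseudocounts of 1 and 10 (18 of 18 values). Their signs were fixed in advance, since an equal pseudocount on both levels cannot change a sign. The deposited fold changes are nearly the same as the computed ratios. Only the size could move, and the log2 ratio of Slc7a10 ranged from -1.05 to -0.94. With an adjusted p under 0.01, 5 of the 6 genes were left, all but Slc1a2. With an absolute log2 ratio of at least 0.5, and likewise of at least 1, 1 gene was left, Slc7a10, because the other 5 lie under 0.5. The Spearman correlation between size of change and level over the 6 genes was -0.90 or lower under each alternative tried. The 6 genes have the same order by control, shPaupar and mean level and per exonic kilobase. These choices of abundance therefore could not change the correlation. With 1 neighbouring pair out of order, leaving out any 1 gene could only give -0.90 or -1. The filter on levels of at least 100 in both groups removed Slc7a10 alone. How firm the correlation is cannot be read from these alternatives, and the order of change among the other 5 genes is not resolved. Over the table the Spearman correlation was -0.80, and became -0.67 with levels of at least 100 in both groups (n = 93 rows). Pearson's r on log2 levels over the table was -0.56. The share of rows lower was 65.2%, and 66.7% among rows that reach a level of 100 in either group. Abundance per exonic kilobase and the use of annotated gene spans were chosen after seeing the data. Depth is unknown, so no limit of detection can be given.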
